A study of Mus musculus with 56 samples.

Results

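Tppp3, Itga11, Trps1 and Tle3 are 4 genes of visceral adipose tissue (VAT), out of 25939 in the deposited table, that were singled out for repeating every 12 h under daytime-restricted feeding (DRF). They were taken by symbol, and all 4 were measured in all 56 libraries. The mice were female C57BL/6J animals of 9 weeks that were kept in a 12-h light and 12-h dark cycle and had food only by day (DRF) or only by night (NRF, the control) for 7 days. VAT was collected at 7 zeitgeber times from ZT0 (lights on) to ZT24, with 4 mice for each regimen and time point, so each regimen has 28 mice and every library is a different animal. Because the 12-h pattern under DRF chose the genes, its size is given here as a description and carries no test. Their mean level, and their rhythms under NRF, are other measures than the one that chose them, and those were tested. The tests share a residual variance over all 56 libraries, DRF mice included.

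Most rhythmic transcripts cycle with the day, driven by the circadian clock and by feeding, whereas a smaller class repeats with a 12-h period. In liver, 12-h rhythms are best known from genes of the unfolded protein response, in which the transcription factor XBP1 induces chaperones of the endoplasmic reticulum (ER). The 4 genes have other roles. Tppp3 encodes a tubulin-binding protein of the tubulin polymerization-promoting family and marks progenitor-like stromal cells in tendon and other connective tissues. Itga11 encodes the alpha-11 integrin chain, which pairs with the beta-1 chain as a receptor for fibrillar collagen on fibroblasts. Trps1 encodes a transcriptional repressor with a GATA-type zinc finger, known from skeletal development. Tle3 encodes a corepressor of the Groucho family that works with PPARG in fat cell differentiation and opposes the thermogenic program of brown fat.

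The genes differ in place and in abundance (coordinates on GRCm38). Tppp3 (ENSMUSG00000014846) lies on chromosome 8 at 105467493-105471526 on the minus strand. Itga11 (ENSMUSG00000032243) and Tle3 (ENSMUSG00000032280) both lie on the plus strand of chromosome 9, at 62677826-62783982 and 61372366-61418497. Trps1 (ENSMUSG00000038679) lies on chromosome 15 at 50654752-50890463 on the minus strand and holds the microRNA gene Mir1907 on the same strand, whereas no annotated gene overlaps the other 3. Levels are reads scaled to the size of the library (CPM), recovered from the deposited values. Per kilobase of exon, Tppp3 had the highest level with 41.7 CPM per kb, followed by Tle3 with 6.68, Itga11 with 2.65 and Trps1 with 2.57. The reads behind each value ranged from 1145 to 5958 for Tppp3, from 1763 to 4390 for Tle3, from 873 to 1878 for Trps1 and from 238 to 982 for Itga11, so Itga11 has the largest relative counting error of the 4. No filter on low values was used in the tests, and all 4 genes had a mean above 1 CPM.

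RefSeq promoter windows on GRCm38.p6 were at hand for 2 of the 4 genes. The 250 bases before the start of Tle3 (chr9:61372116-61372365, plus strand, 52.4% GC) are shown because they hold the letters of an element bound by clock factors. The capitals mark every match to the motifs searched.
Tle3: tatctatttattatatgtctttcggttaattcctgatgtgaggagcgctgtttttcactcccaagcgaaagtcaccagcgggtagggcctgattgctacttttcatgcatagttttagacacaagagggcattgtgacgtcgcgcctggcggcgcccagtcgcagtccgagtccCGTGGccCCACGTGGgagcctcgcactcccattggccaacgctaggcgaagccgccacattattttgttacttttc
The E-box CACGTG, the site of the CLOCK and BMAL1 pair, lies at positions -68 to -63 from the start and occurs in 6.02% of 32851 promoter windows of the same length. The core CCACG of the XBP1 element was matched at positions -76 to -72, -69 to -65 and -66 to -62, reading both strands. The last 2 of these overlap the E-box, and the core occurs in 28.3% of all windows. The window of Itga11 (chr9:62677605-62677854, plus strand, 68.4% GC) held none of the letters searched, which also included the D-box (TTATGTAA or TTACGTAA, in 0.931% of windows), the element AGGTCA of ROR and REV-ERB (14%), the CRE TGACGTCA (1.55%) and the ETS motif CCGGAAG (6.91%). RefSeq places the start of Itga11 further into the gene than the coordinates above, so the end of this window lies inside the gene as given there. A match is a description of the letters, and binding was not measured.

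The libraries held 28980194 to 38963210 recovered reads, with a median of 33500669. Adipocyte markers (6 measured genes) were present in every library. A pair of DRF libraries stood apart. The adipocyte markers summed to 9003 CPM in replicate 4 of DRF ZT0 and to 5883 CPM in replicate 1 of DRF ZT8, against 10790 to 28820 CPM in the other 54. Markers of uterine and oviduct epithelium (8 measured genes) summed to 6353 and 379.8 CPM in the same pair, against 9.481 to 76.83 CPM in the others. Tppp3, which ciliated epithelium can also express, stood at 39.9 and 67.0 CPM in this pair of libraries, where the other mice of their groups had 39.6 to 55.3 CPM and 49.5 to 63.0 CPM. Tle3, with 95.2 and 99.8 CPM, and Trps1, with 33.7 and 42.03 CPM, were the highest of their groups in both libraries. Itga11 had 7.68 and 8.16 CPM there, the former the lowest of its group. Results were also computed without both libraries.

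Tppp3 had a pair of maxima under DRF and a single broad one under NRF. At ZT4, the 4 DRF mice had 93.8, 86.5, 86.9 and 114.7 CPM, and at ZT16 they had 81.5, 110.5, 76.6 and 101.8 CPM. The means of 95.5 ± 13.3 and 92.6 ± 16.1 CPM (SD, n = 4 each) are the highest of the regimen, and their mice overlap. Between these times the level fell back. The mice had 39.6, 55.3, 44.4 and 39.9 CPM at ZT0, 67.03, 62.95, 58 and 49.5 CPM at ZT8 and 41.95, 60.5, 47.3 and 64.98 CPM at ZT12. At ZT20 they had 81.9, 71.5, 60.9 and 87.1 CPM and at ZT24 65.8, 47.3, 73.7 and 64.6 CPM. All 4 mice at ZT4 and all 4 at ZT16 were above every mouse at ZT0, ZT8, ZT12 and ZT24, and the ratio of the highest to the lowest mean was 2.13. The ZT0 and ZT24 groups, which are the same time of day on successive days, had means of 44.8 ± 7.35 and 62.8 ± 11.1 CPM with overlapping mice.

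Under NRF, Tppp3 was low in the later light phase and high through the night. The 4 mice had 36.8, 50.3, 31.6 and 43.2 CPM at ZT8 and 36.04, 29.4, 34.7 and 30.98 CPM at ZT12. They had 119.5, 120.8, 102.8 and 77.6 CPM at ZT16, 113.8, 139.6, 104.4 and 132.7 CPM at ZT20 and 103.6, 86.96, 96.5 and 132.1 CPM at ZT24. At ZT0 they had 99.7, 124.6, 112.9 and 88.6 CPM and at ZT4 101.9, 56.9, 91.4 and 83.02 CPM. Every mouse at ZT8 and ZT12 was below every mouse at the other 5 times, and the mean rose from 32.8 ± 3.12 CPM at ZT12 to 122.6 ± 16.4 CPM at ZT20, a ratio of 3.74. No other pair of neighbours in the order of the 7 means was free of overlap: ZT20, ZT0, ZT16, ZT24 and ZT4 followed each other within the spread of the mice.

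Itga11 also had its maxima at ZT4 and ZT16 under DRF. The DRF mice had 14.9, 13.9, 13.04 and 13.01 CPM at ZT4 and 13.1, 18.6, 18.5 and 17.7 CPM at ZT16. They had 8.34, 9.67, 9.37 and 7.68 CPM at ZT0, 8.16, 10.6, 8.14 and 11.9 CPM at ZT8 and 6.64, 6.49, 10.1 and 6.89 CPM at ZT12. All 4 mice at ZT4 and at ZT16 were above every mouse at ZT0, ZT8 and ZT12. The evening rise was the steepest step, from a mean of 7.54 ± 1.74 CPM at ZT12 to 16.99 ± 2.62 CPM at ZT16, a ratio of 2.25. The level stayed between at ZT20, with 15.2, 12.1, 10.2 and 10.8 CPM, and at ZT24, with 14.6, 11.9, 10.8 and 8.97 CPM. Both of these groups overlap ZT4 as well as ZT8.

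Under NRF, Itga11 had no second maximum by day. The mice had 14.1, 11.2, 10.7 and 11.3 CPM at ZT4, 12.8, 10.9, 10.03 and 10.8 CPM at ZT8 and 13.8, 11.1, 7.3 and 10.7 CPM at ZT12, and these 3 groups overlap. At night they had 22.6, 18.8, 24.7 and 16.5 CPM at ZT16 and 21.3, 21.8, 26.5 and 25.6 CPM at ZT20, all above every mouse of the 3 daytime groups. They had 20.4, 20.4, 14.1 and 14.3 CPM at ZT24 and 7.86, 14.8, 24.99 and 9.84 CPM at ZT0. The ZT0 group is the most scattered of all, with a mean of 14.4 ± 7.66 CPM, and its highest mouse reached the level of ZT20 whereas its lowest was near the daytime minimum.

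Trps1 moved over a narrower range and peaked later in each cycle. The DRF mice had 42.03, 38.7, 35.6 and 40.01 CPM at ZT8 and 36.1, 33.9, 39.5 and 36.2 CPM at ZT20. They had 26.8, 28.5, 30.4 and 33.7 CPM at ZT0, 29.03, 29.9, 30.4 and 27.7 CPM at ZT12 and 28.1, 29.6, 28.3 and 33.3 CPM at ZT24. Every mouse at ZT8 and ZT20 was above every mouse at ZT0, ZT12 and ZT24, although the means of 39.1 ± 2.68 CPM at ZT8 and 29.3 ± 1.19 CPM at ZT12 differ only by a ratio of 1.34. At ZT4 the mice had 31.5, 34.6, 30.3 and 31.9 CPM and at ZT16 33.8, 37.2, 37.2 and 34.1 CPM, so the second cycle was high at both ZT16 and ZT20. Under NRF, the mice had 36.5, 48.3, 35.6 and 42.7 CPM at ZT0, 37.3, 42.01, 30.3 and 38.6 CPM at ZT4 and 28.9, 26.3, 37.6 and 31.6 CPM at ZT8. They had 22.1, 31.4, 29.2 and 29.1 CPM at ZT12, 24.4, 29.2, 30.5 and 41.7 CPM at ZT16, 41.1, 37.5, 38.6 and 36.4 CPM at ZT20 and 45.4, 31.7, 48.9 and 41.2 CPM at ZT24. The level thus ran from a minimum of 27.96 ± 4.04 CPM at ZT12 to a maximum of 41.8 ± 7.4 CPM at ZT24, and all neighbours in the order of the NRF means overlapped.

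Tle3 had maxima under DRF at ZT4, with 93.2, 100.8, 86.7 and 83.8 CPM, and at ZT16, with 105.8, 91.6, 86.2 and 100.4 CPM. Its trough at ZT20 was deep, with 59.1, 61.3, 51.9 and 56.1 CPM, all below every mouse at ZT0, ZT4, ZT8, ZT16 and ZT24. The daytime trough was shallow. The mice had 76.2, 89.4, 65.8 and 95.2 CPM at ZT0, 99.8, 76.2, 64.8 and 70.4 CPM at ZT8 and 59.5, 81.3, 71.4 and 69.3 CPM at ZT12, and 96.5, 71.6, 87.1 and 73.6 CPM at ZT24. The ZT8 mean of 77.8 ± 15.4 CPM and the ZT20 mean of 57.1 ± 4.09 CPM lie 12 h apart without overlap (11.1% of all genes), so this pair of times did not repeat. Tle3 is the only one of the 4 genes with such a pair under DRF.

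Under NRF, Tle3 dipped at ZT8, with 58.98, 53.9, 50.6 and 56.1 CPM, and again at ZT20, with 70.4, 74.6, 63.98 and 68.4 CPM. The mice had 85.8, 83.5, 76.8 and 102.0 CPM at ZT0, 106.7, 58.2, 65 and 93.6 CPM at ZT4 and 63.3, 65.6, 105.4 and 92.8 CPM at ZT12. They had 90.3, 87.5, 83.3 and 85.8 CPM at ZT16 and 58.1, 69.04, 77.9 and 84.3 CPM at ZT24. The ZT4 and ZT12 groups were widely scattered, with means of 80.9 ± 23.1 and 81.8 ± 20.7 CPM. The ZT16 group was tight, at 86.7 ± 2.96 CPM.

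**Figure D1:**
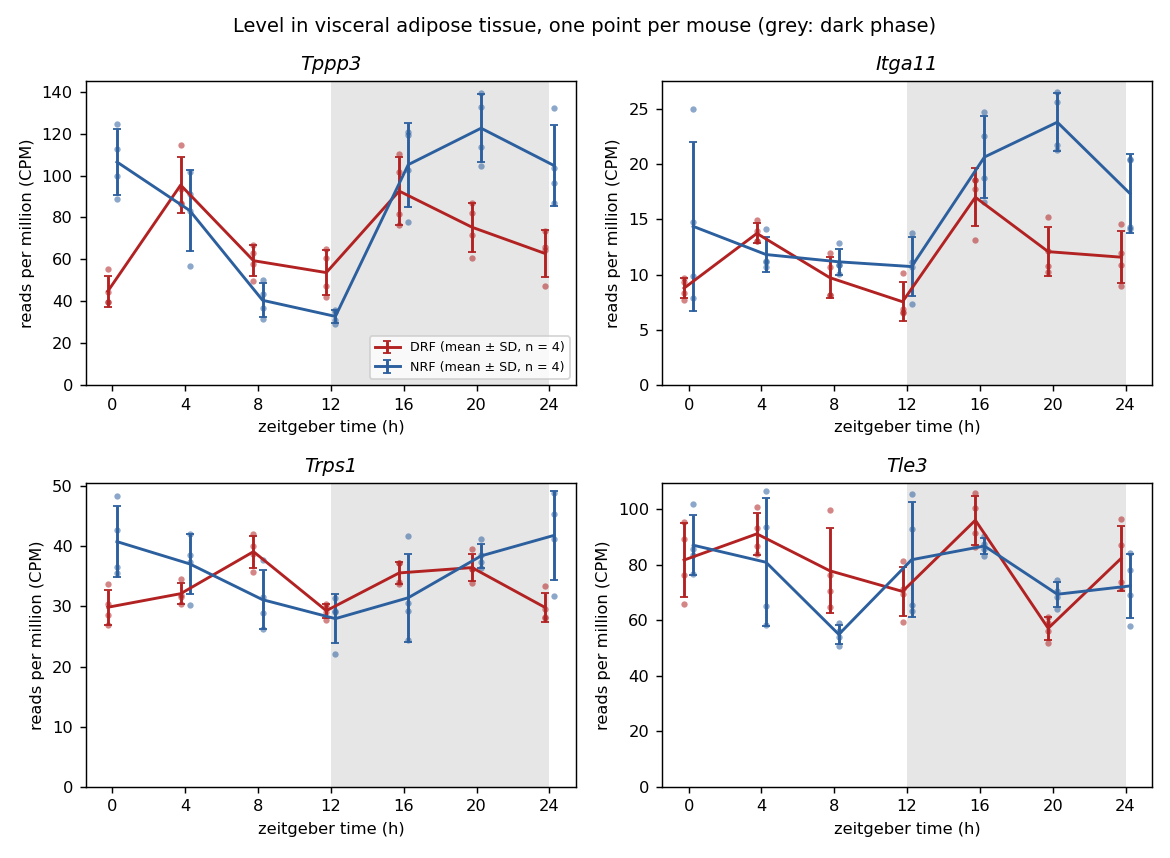
Level of each gene in CPM against zeitgeber time in hours, with 1 point per mouse and lines through the mean ± SD of 4 mice under DRF (red) and NRF (blue); the dark phase is grey. Tppp3 and Itga11 have maxima at ZT4 and ZT16 under DRF, and both are highest at ZT20 under NRF.

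To put numbers on these shapes, a 24-h and a 12-h wave were fitted together to each gene and regimen on log2(CPM + 1), so an amplitude is the height of a wave above the mean on that scale. Under DRF, the 12-h amplitude of Tppp3 was 0.48 (SE 0.070) with maxima at 4.82 h (SE 0.287) and 12 h later. That of Itga11 was 0.43 (SE 0.079) with a first maximum at 4.70 h (SE 0.360), that of Tle3 was 0.28 (SE 0.065) at 3.12 h (SE 0.400), and that of Trps1 was 0.19 (SE 0.044) at 6.93 h (SE 0.465). The first maximum of Trps1 thus fell later than those of the other 3 genes. The 24-h amplitudes under DRF were smaller in each gene, at 0.10 (SE 0.073) for Tppp3, 0.22 (SE 0.081) for Itga11, 0.10 (SE 0.065) for Tle3 and 0.03 (SE 0.044) for Trps1. Among the 14299 genes with a mean of at least 1 CPM, whose median 12-h amplitude under DRF was 0.09, they stood at the percentiles 99.7 (Tppp3), 99.4 (Itga11), 96.6 (Tle3) and 87.7 (Trps1). These values describe how the genes were chosen and are no evidence that they differ from other genes.

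Across the transcriptome, the 12-h wave under DRF passed an adjusted p of 0.05 in 310 of 25934 genes, or 1.20%. The same wave under NRF passed in 7 genes, or 0.0270% (limma, Benjamini-Hochberg adjustment), with 1491 genes at an unadjusted p under 0.05. Both counts moved with the mice or genes used. With a replicate number left out they ran from 31 to 83 under DRF and from 3 to 13 under NRF, and the NRF count was 16 among genes of at least 1 CPM and 33 without the pair of DRF libraries that stood apart. The 7 were Arntl, Ciart, Clock, Cpeb1, Gm23472, Hlf and Sphk2, among them the clock genes Arntl and Clock. A 24-h profile that departs from a cosine also yields a 12-h term in this fit. The term alone therefore does not show a 12-h rhythm. None of the 4 genes was among the 7. Tppp3 came closest. Its 12-h amplitude under NRF was 0.36 (SE 0.070) with a first maximum at 4.72 h (SE 0.379) and an adjusted p of 0.0584, while its unadjusted p was 2.25e-05. This value lies at the threshold and passed it under 3 of the alternatives: at 0.0329 when only genes of at least 1 CPM were tested, at 0.0478 with a pseudocount of 0.25, and at 0.0276 without the pair of DRF libraries that stood apart. Over all alternatives on the log2 scale its adjusted p ran from 0.0276 to 0.435. Tle3 had a 12-h amplitude of 0.26 (SE 0.065) under NRF with a first maximum at 2.28 h (SE 0.446) and an adjusted p of 0.282. Itga11 had 0.21 (SE 0.076, adjusted p = 0.777). Trps1 had 0.02 (SE 0.046) and an adjusted p of 1. The unadjusted p was under 0.05 for 3 of the 4 genes, with 0.00100 for Tle3 and 0.0279 for Itga11, and 0.914 for Trps1. Whether the 12-h amplitude differed between the regimens was not tested, because the DRF side chose the genes.

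The 24-h wave under NRF was past the threshold in 3 of the 4 genes, where 34.3% of all genes (8896 of 25934) and 55.6% of genes of at least 1 CPM passed. Tppp3 had a 24-h amplitude of 0.95 (SE 0.070), with the maximum at 21.6 h (SE 0.291) and an adjusted p of 1.51e-14. The 24-h amplitude of Itga11 was 0.55 (SE 0.083), with the maximum at 19.5 h (SE 0.532) and an adjusted p of 1.82e-06. Trps1 had a smaller 24-h wave of 0.27 (SE 0.043), with its maximum at 23.8 h (SE 0.662) and an adjusted p of 5.04e-06. All 3 kept their side of the threshold in every alternative. Tle3 was not past it, with an amplitude of 0.14 (SE 0.065), a loosely placed maximum at 18.5 h (SE 1.64) and an adjusted p of 0.232. Among genes of at least 1 CPM, the 24-h amplitudes under NRF stood at the percentiles 98.8 (Tppp3), 94.7 (Itga11), 75.6 (Trps1) and 40.3 (Tle3), and the 12-h amplitudes under NRF at 99.5, 96.5, 7.13 and 98.2. In Tle3 the fitted 12-h amplitude under NRF was thus larger than the 24-h one, whereas in the other 3 genes the 24-h one was larger.

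Times 12 h apart were also compared mouse by mouse. Under NRF, Tppp3 at ZT20 was 3.03 times its ZT8 level, and at ZT12 it was 0.308 times its ZT0 level, both without overlap, where 23.3% and 15.7% of all genes were free of overlap. Itga11 was 1.75 times as high at ZT16 as at ZT4 and 2.13 times as high at ZT20 as at ZT8, again without overlap (15.8% of all genes for ZT4 against ZT16). Trps1 at ZT12 had 0.686 times its ZT0 level and Tle3 at ZT20 had 1.26 times its ZT8 level, both without overlap. The other NRF pairs within ZT0 to ZT20 overlapped: ZT16 over ZT4 gave 1.26 for Tppp3, 0.848 for Trps1 and 1.07 for Tle3, ZT20 over ZT8 gave 1.23 for Trps1, and ZT12 over ZT0 gave 0.747 for Itga11 and 0.940 for Tle3. Under DRF, ZT16 over ZT4 gave 0.970 for Tppp3, 1.24 for Itga11, 1.11 for Trps1 and 1.05 for Tle3, and the mice of each pair overlapped, where 22.8% of all genes were free of overlap. ZT20 over ZT8 under DRF gave 1.27 for Tppp3, 1.24 for Itga11 and 0.932 for Trps1, with overlap, and 0.734 for Tle3, without. ZT12 over ZT0 gave 1.20 for Tppp3, 0.860 for Itga11, 0.981 for Trps1 and 0.862 for Tle3, and all 4 overlapped, where 12.5% of all genes did not.

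**Figure D2:**
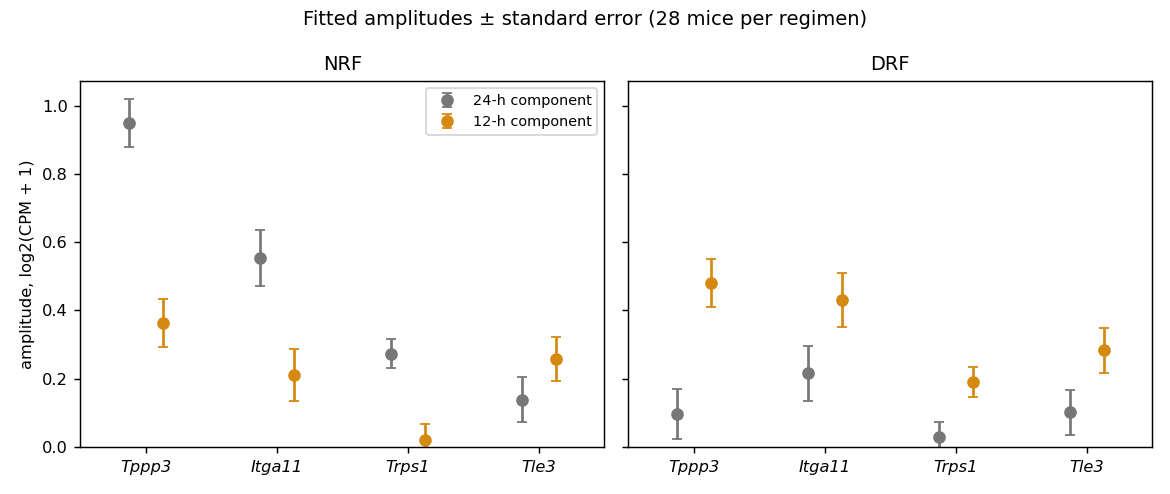
Fitted 24-h (grey) and 12-h (orange) amplitudes on log2(CPM + 1), with bars of 1 standard error, for each gene under NRF (left) and DRF (right), from 28 mice per regimen. The 24-h amplitude of Tppp3 is 0.95 under NRF and 0.10 under DRF; the DRF amplitudes chose the genes and are shown as a description.

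The mean level over the day differed between the regimens in 1 of the 4 genes, beside 22.7% of all genes (3093 or 11.9% higher under DRF and 2803 or 10.8% lower, of 25934) and 39.3% of genes of at least 1 CPM. Of those called genes 52.5% were higher under DRF, but 38.5% when recovered library totals set the scale. Itga11 fell under DRF. Its mean was 3.62 under DRF and 3.97 under NRF on log2(CPM + 1), a difference of -0.36 (SE 0.080, adjusted p = 0.000673 in limma), and its DRF mean was the lower at 6 of 7 time points. Over the alternatives on the log2 scale this difference ran from -0.40 to -0.32, and it remained past the threshold in each. The means of Tppp3 were 6.12 under DRF and 6.20 under NRF (difference -0.08, SE 0.071, adjusted p = 0.483). Those of Trps1 were 5.11 and 5.13 (difference -0.01, SE 0.045, adjusted p = 0.878). Those of Tle3 were 6.31 and 6.22 (difference 0.08, SE 0.062, adjusted p = 0.394). Over the alternatives on the log2 scale, the difference of Tle3 ran from 0.03 to 0.13 and that of Tppp3 from -0.13 to -0.05. Neither gene passed the threshold in any of them.

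Markers of other cells moved with regimen too. Of 9 markers of adipose progenitors and fibroblasts, 6 were lower under DRF and none was higher (10.8% and 11.9% of all genes), and their summed level had a median of 2448 CPM (range 2045 to 3383) under DRF and 2990 CPM (range 2488 to 3919) under NRF. The 6 measured adipocyte markers summed to a median of 14810 CPM under DRF and 21240 CPM under NRF. Cfd (adipsin), the most abundant of the 6, carried this difference, with a median of 4691 CPM under DRF and 12400 CPM under NRF, and the other 5 summed to a median of 9423 and 9215 CPM. By gene, Cfd and Adipoq were lower, Lep was higher, and Plin1, Lipe and Cidec were not past the threshold. Of the macrophage markers 3 of 4 and of the mesothelial markers 3 of 7 were lower, and all 5 blood markers were higher under DRF, beside the same shares of all genes. The part of these in the lower level of Itga11 was not tested, and in whole tissue fewer cells of a type and less RNA per cell cannot be told apart. None of the 54 marker genes was past the threshold for the 12-h wave under DRF (1.20% of all genes), and 1 had an unadjusted p under 0.05 (14.7% of all genes).

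Compared at the same clock time, Tppp3 was free of overlap between the regimens most often, at 4 of 7 times. It also had the lowest and the highest ratio of the 4 genes. Its DRF mean was 0.421 times the NRF mean at ZT0, 0.614 times at ZT20 and 0.600 times at ZT24, but 1.64 times at ZT12, each without overlap between the 4 and 4 mice. Of all genes, 9.89% were free of overlap at ZT0, 19.7% at ZT20, 15.5% at ZT24 and 21.7% at ZT12, and 18.9% at ZT16 and 24.4% at ZT4, where none of the 4 genes was. The near-equal daily means of Tppp3 therefore hold opposite differences by time. Itga11 was apart at ZT20 alone, at 0.508 times the NRF mean, and lay further from NRF there than Tppp3 did. The same held, with overlap, at ZT4 (1.16 against 1.15) and ZT16 (0.823 against 0.881). Trps1 was apart at ZT0 alone, at 0.732 times. Tle3 was higher under DRF at ZT8 (1.42 times) and lower at ZT20 (0.823 times), both without overlap (11.8% of all genes at ZT8). In all, 8 of the 28 comparisons of a gene at a time were free of overlap. These counts carry no test, since the DRF mice chose the genes.

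**Figure D3:**
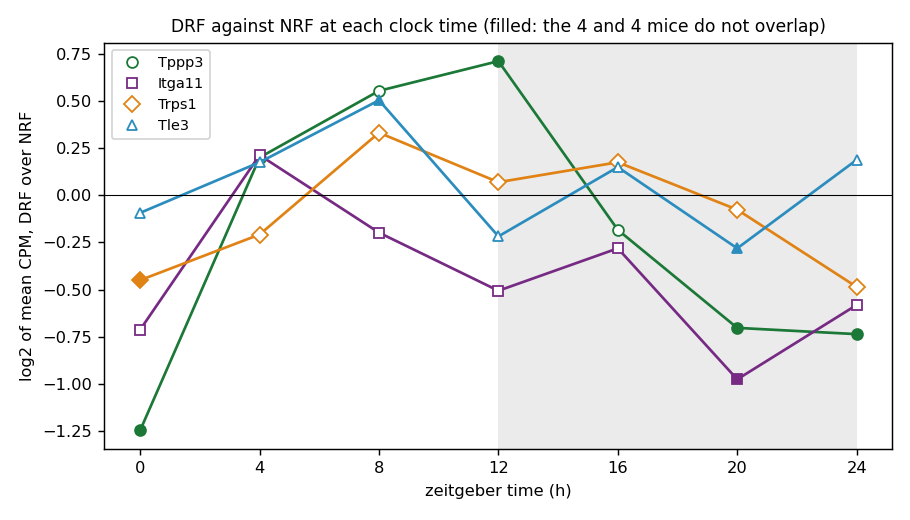
Log2 ratio of the mean CPM under DRF to that under NRF against zeitgeber time in hours, for the 4 genes; filled symbols mark times at which the 4 DRF and 4 NRF mice do not overlap. Tppp3 runs from 0.421 times the NRF mean at ZT0 to 1.64 times at ZT12, whereas Itga11 is below NRF at 6 of 7 times.

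The genes were also compared over the 14 group means of log2(CPM + 1). The Pearson correlation was 0.777 between Tppp3 and Itga11, 0.684 between Tppp3 and Trps1, and 0.433 between Itga11 and Trps1. Tle3 ran apart from the others, with 0.305 against Tppp3, 0.190 against Itga11 and -0.043 against Trps1. Among 14294 genes of at least 1 CPM, the profiles most like that of Tppp3 were those of Hnrnpc (0.964), Gas7 (0.933) and Stmn4 (0.926). Levels of these like genes are group means on log2(CPM + 1) turned back to CPM, unlike the plain means given for the 4 genes. Hnrnpc was highest under DRF at ZT4, with 144.05 CPM, and under NRF at ZT20, with 159.49 CPM. It was lowest at ZT0 under DRF (102.66 CPM) and at ZT12 under NRF (94.43 CPM). These are the times of the highest and lowest means of Tppp3. Fam131b (0.917), Hsp90ab1 (0.894) and Efcc1 (0.879) were most like Itga11, Tmem107 (0.906), Hnrnpr (0.868) and Eef1g (0.862) most like Trps1, and Gm4202 (0.791), Ilk (0.725) and Ndufb4c (0.711) most like Tle3. Hsp90ab1, an abundant cytosolic chaperone, had its highest means at ZT16 under DRF (1217.67 CPM) and ZT20 under NRF (1321.07 CPM), as Itga11 did, and its lowest at ZT0 under DRF (788.94 CPM), where Itga11 was lowest at ZT12, and at ZT12 under NRF (812.87 CPM), as Itga11 was. The points share libraries and feeding times, so these values are a description of like profiles.

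Genes of the unfolded protein response, the class best known for 12-h rhythms, were measured for comparison. This list was chosen with earlier results of these data known, so its counts are a description and no independent support. Of 26 such genes, 8 (30.8%) were past the threshold for the 12-h wave under DRF, where 1.20% of all genes and 3.13% of genes of at least 1 CPM were. They are Hspa5, Hsp90b1, Dnajb9, Dnajb11, Dnajc3, Sdf2l1, Creld2 and Manf, chaperones, cochaperones and other resident proteins of the ER. Hspa5, the main ER chaperone, had a 12-h amplitude of 0.39 (SE 0.052) with a first maximum at 4.38 h and an adjusted p of 0.000172, from a mean level of 402.9 CPM. The 8 had amplitudes of 0.14 to 0.39 and first maxima between 4.0 and 5.2 h, and those of Tppp3 (4.82 h) and Itga11 (4.70 h) lie inside that span, whereas those of Tle3 (3.12 h) and Trps1 (6.93 h) lie outside it. For the 24-h wave under NRF, 18 of the 26 were past the threshold (34.3% of all genes and 55.6% of genes of at least 1 CPM), among them 7 of the 8 (all but Dnajb9). None of the 26 was past it for the 12-h wave under NRF (0.0270% of all genes), and 3 had an unadjusted p under 0.05 (5.75% of all genes). The count of 8 under DRF was not stable. Without a replicate number it fell to between 2 and 4, while the count over all genes fell from 310 to between 31 and 83. With library totals as the scale it fell to 5, while the count over all genes rose to 392.

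Xbp1 itself, the factor that induces these chaperones, had a 12-h amplitude of 0.05 (SE 0.061) under DRF and an adjusted p of 0.866. Its mean level fell by 0.36 under DRF (SE 0.063, adjusted p = 2.35e-05). Atf4, the effector of the PERK branch, followed a 24-h wave under DRF with an amplitude of 0.59 (SE 0.087, adjusted p = 2.79e-06). Its 12-h amplitude was 0.10 (SE 0.087, adjusted p = 0.776). These values are levels of RNA, and the activity of XBP1 and ATF4 was not measured. By mean level, 5 of the 26 were higher under DRF (11.9% of all genes), 4 were lower (10.8%) and 17 did not pass.

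**Figure D4:**
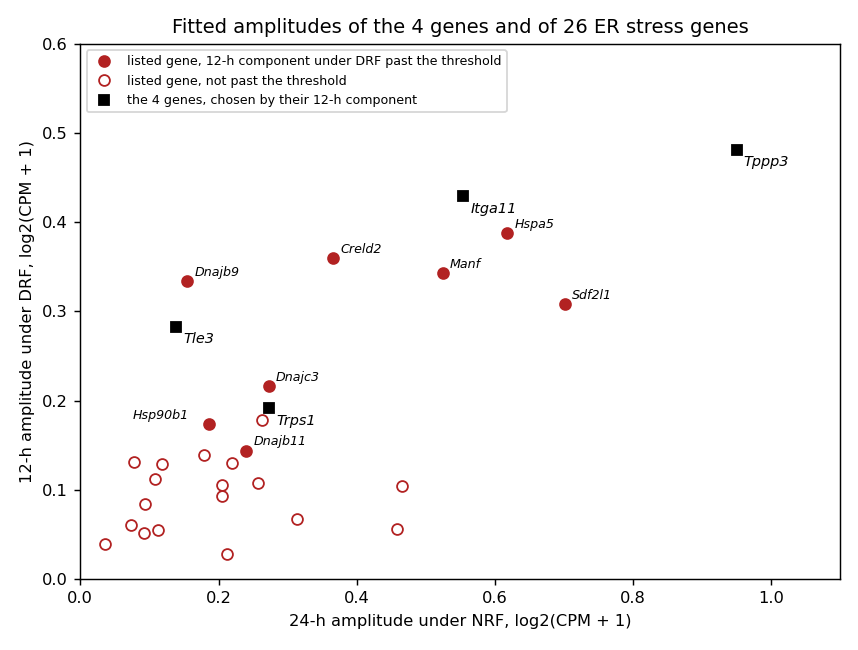
12-h amplitude under DRF against 24-h amplitude under NRF, both on log2(CPM + 1), for 26 ER stress genes (red circles, filled where the 12-h wave passed an adjusted p of 0.05) and for Tppp3, Itga11, Trps1 and Tle3 (black squares). The 8 filled genes have 12-h amplitudes of 0.14 to 0.39, and the amplitudes of the 4 genes, which were chosen by that measure, are 0.19 to 0.48.

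Relatives and partners of the 4 genes were measured as well. For the counts that follow, the 12-h wave under DRF passed in 1.20% of all genes and had an unadjusted p under 0.05 in 14.7%, so few or no calls in a short list match the background. In the TPPP family, Tppp followed a 24-h wave under DRF with an amplitude of 0.86 (adjusted p = 2.32e-09), and its mean level fell by 0.24 (SE 0.089, adjusted p = 0.0410). Tppp2 was hardly detected, with a mean of 0.02 CPM. Of the other 4 collagen-binding integrin genes none passed for 12 h under DRF, and none had an unadjusted p under 0.05. Itgb1, the partner chain of Itga11, had a mean of 438.0 CPM and rose by 0.17 under DRF (SE 0.027, adjusted p = 6.56e-06), where Itga11 fell. Of 6 fibrillar collagen genes, whose products Itga11 binds, all 6 passed for the 24-h wave under NRF, where 34.3% of all genes and 55.6% of genes of at least 1 CPM did. None of the 6 passed for the 12-h wave under DRF or had an unadjusted p under 0.05. Col1a2 and Col3a1 fell by 0.27 and 0.28 in mean level (adjusted p = 0.0201 and 0.00611), and Col5a3 rose by 0.92 (SE 0.122, adjusted p = 1.49e-07).

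Among the 6 GATA factors compared with Trps1, Gata6 alone was past the threshold for the 12-h wave under DRF, with an amplitude of 0.35, a first maximum at 4.30 h and an adjusted p of 0.0373. Gata6 also had a 24-h wave of 0.62 under DRF (adjusted p = 3.01e-07). Gata4 and Gata5 fell by 0.14 and 0.26 in mean level under DRF (adjusted p = 0.00965 and 0.0222). In the TLE family, none of the other 5 genes passed for 12 h under DRF, and 1 had an unadjusted p under 0.05, near the shares over all genes (1.20% and 14.7%). Aes rose by 0.32 and Tle1 by 0.18 in mean level under DRF (adjusted p = 2.38e-06 and 0.0109). Of 8 genes that act with or against TLE3 in fat cells none passed for 12 h under DRF, and 2 had an unadjusted p under 0.05, again near those shares. Ebf2, a factor of the brown fat program, fell by 0.28 in mean level (SE 0.058, adjusted p = 0.000280), and Pparg had a difference of -0.19 (SE 0.077, adjusted p = 0.0620).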

How the data were processed

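VAT RNA of 56 mice was sequenced as poly(A) libraries. Per the labels, reads were aligned to mm10 (GRCm38) with HISAT2 2.0.5 and counted with featureCounts 1.5.0-p3. The strand setting is not given in the sources used here. The authors deposited a value named TPM, treated here as a score, because its steps follow log2(CPM + 1) divided by exon length. Whole reads were recovered with GENCODE vM21 exon lengths (99.9998% of the 1262030 values up to 10000 reads gave an integer to a tolerance of 0.02). Lengths came from the annotation for 25054 genes and from the values for 880. Car3, Scd1, Fabp4, mt-Co1 and mt-Cytb were unresolved and left out, so 25934 of 25939 genes were analysed. CPM are relative to effective library sizes of 31.8 to 47.3 M reads, which are 0.986 to 1.407 times the recovered totals. How the authors set that scale is not given in the sources used here.

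A mean, a 24-h and a 12-h wave per regimen were fitted to log2(CPM + 1) over all 56 libraries with limma 3.58.1 (R 4.3.3, intensity trend), which understates changes of low genes. P-values were adjusted over all genes by Benjamini-Hochberg, with a threshold of 0.05. Tested on simulated data with 200 changed genes each among 25934, the fit recovered 199 for mean level (12 others called), 191 for the NRF 12-h wave (9 others) and 187 for the NRF 24-h wave (12 others). Recovery at the amplitudes and level differences found in the 4 genes was not tested. Groups came from the sample labels. Named genes are the 4 genes, the listed families, partners, ER stress genes and cell markers, and the 3 most alike profiles per gene; the 4 genes and these lists were chosen with earlier results of these data known. Of the markers listed, Fabp4 was left out and Wnt7a and Pax8 were not used here. Alternatives were an expression filter (1 CPM), a pseudocount of 0.25, other scalings, the deposited values, no trend, a replicate block, and leaving out ZT24, the 2 DRF libraries that stood apart, or each replicate number. Python 3.11.15 was used for the recovery and figures. Other tissues were not analysed here.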

Additional observations from a re-analysis of the deposited data

Results flagged for a closer look

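In 3 of 56 gene and group sets of 4 mice, 1 mouse lay far from the other 3, by a gap over the group's range above Dixon's critical value; chance gives about 1 in 20. All 3 concern Itga11. It has the fewest reads of the 4 genes, and whether depth has a part in these 3 values was not tested. At DRF ZT12, replicate 3 had 10.14 CPM, above the 6.492 to 6.891 CPM of the other mice. At DRF ZT16, replicate 1 had 13.11 CPM, below the 17.71 to 18.59 CPM of the others. At NRF ZT4, replicate 1 had 14.13 CPM, above 10.71 to 11.26 CPM. The first 2 mice lie toward the middle of the DRF range, so each brings the ZT12 and ZT16 means closer together.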

How the results depend on the processing

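The level of Itga11 and the 24-h waves of Tppp3, Itga11 and Trps1 under NRF kept their direction and their side of the threshold under every alternative run, and Tle3 passed none of these tests under any. The level difference of Trps1, -0.014 and not past the threshold, ran from -0.059 with library totals to 0.015 without replicate 4, where it reversed (adjusted p = 0.894), and from -0.042 to 0.015 with a replicate number left out. The count of genes with a 12-h wave under NRF went from 7 to 16 among genes of at least 1 CPM and to 33 without the 2 DRF libraries that stood apart. With each replicate number left out, the count ran from 3 to 13 for 12 h under NRF, from 31 to 83 for 12 h under DRF (310 with all mice) and from 5929 to 8178 for 24 h under NRF (8896). The lowest of these came without replicate 2. Replicate numbers name different mice. The correlation of same-numbered DRF and NRF mice ran from -0.303 to 0.338 over 28 pairs, 8 of them over 0.1. The main fit did not use the numbers as pairs, and the labels do not say whether they mark a batch. With the replicate block the counts were 6122 for level (5896) and 417 for 12 h under DRF. Under NRF they were 9 for 12 h and 9172 for 24 h. The library totals, and all alternatives of the 24-h wave under DRF and of the ER list, were added after the data were seen. Itga11 had the fewest reads of the 4 genes, with as few as 238 in a library, and the part of depth in its spread was not tested.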
